A study of Mus musculus with 22 samples.

Results

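Windows that lie in introns far from a start site were taken from Kupffer cells, the macrophages that live in the liver sinusoids, and examined for H3K27ac, the acetyl mark on lysine 27 of histone H3. The members were the autosomal windows that HOMER had annotated to an intron and placed more than 10 kb from the nearest transcription start site (TSS), and they numbered 23454 of 96381 windows of 1000 bp (24.3%). H3K27ac ChIP–seq was available for 3 inbred strains, with 3 libraries each (A/J, then BALB/cJ, then C57BL/6J), and for 3 libraries of CB6F1/J, the F1 of BALB/cJ and C57BL/6J, in which the BALB/cJ and the C57BL/6J allele were counted apart. All mice were males of 8 to 12 weeks without LPS treatment, CB6F1/J had a BALB/cJ mother and a C57BL/6J father, the cells were sorted by FACS, and counts of ChIP input, which is chromatin sequenced without the antibody, were used from 3 libraries of A/J, from 3 of BALB/cJ and from 1 of C57BL/6J. The counts of the 9 parental libraries summed to between 2291426 and 12980348 tags in windows, those of the 7 inputs to between 583518 and 1916588, and the allelic counts of the F1 to between 191711 and 441065 per allele and animal. Replicate 2 was the shallowest library of each strain.

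Introns hold many of the enhancers of mammalian genomes. An enhancer is a stretch of DNA at which transcription factors bind and from which they raise the transcription of a gene, often over a long distance, and the nucleosomes beside an active enhancer or promoter carry H3K27ac. In macrophages PU.1, C/EBP and AP-1 factors open most of these sites, and factors such as IRF, MAF and NF-κB act on them. The first intron is nearest to the promoter of its transcript and is often the longest. An intronic enhancer need not act on the gene that holds it, so the gene with the nearest TSS is given beside the host gene where they differ.

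Intron 1 held 6322 members (26.96%), intron 2 held 4304, introns 3 to 5 held 5630 and intron 6 or a later one held 7198. The members fell in 5420 host transcripts, and the gene with the nearest TSS was the host gene for 68.4% of those with a matched host symbol. That share was 88.0% in intron 1 and 44.1% in intron 6 or beyond. The median intron was 50.2 kb long for members in intron 1 and 6.22 kb for members in intron 6 or beyond, and their median distances from the nearest TSS were 22.4 kb and 41.7 kb. The intron number was the same in the RefSeq annotation of GRCm38.p6 for 23131 of the 23337 members whose transcript it holds (99.1%). Of the members, 36.3% overlapped another window, so that neighbors share reads, and 13.4% came from peaks found only after lipopolysaccharide (LPS). At the TSS windows of 10 Kupffer cell markers, among them Clec4f, Vsig4 and Timd4, the median normalized count was 131. At those found for hepatocytes, stellate cells, sinusoidal endothelial cells, and B, T and NK cells it was 7.60, 3.78, 5.31 and 4.03, while 5 such windows of monocyte and neutrophil genes had a median of 24.8. The summed count of that last list ran from 416 to 526 in A/J, from 393 to 460 in BALB/cJ and from 477 to 814 in C57BL/6J libraries, and its part in the results was not tested.

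The windows on which the strain and allele comparisons turn are shown by their central 300 bases, read from GRCm38.p6 (mm10) on the plus strand, with matches to 8 motifs in capitals. They are windows with the largest or second largest change of a comparison and direction. The first 3 differed between strains.
Pde4b, chr4:102517886-102518185: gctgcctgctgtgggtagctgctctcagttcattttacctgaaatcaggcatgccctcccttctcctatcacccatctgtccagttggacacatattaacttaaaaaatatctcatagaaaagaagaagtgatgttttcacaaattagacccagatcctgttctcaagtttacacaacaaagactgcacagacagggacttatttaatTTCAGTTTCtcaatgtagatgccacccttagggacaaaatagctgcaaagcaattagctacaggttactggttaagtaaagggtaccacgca
Myog, chr1:134304691-134304990: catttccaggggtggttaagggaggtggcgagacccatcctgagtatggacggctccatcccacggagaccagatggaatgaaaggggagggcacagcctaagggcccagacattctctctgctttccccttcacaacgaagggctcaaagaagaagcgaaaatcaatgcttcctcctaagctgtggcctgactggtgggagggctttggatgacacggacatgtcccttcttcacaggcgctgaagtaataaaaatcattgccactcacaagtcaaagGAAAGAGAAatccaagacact
Clip4, chr17:71834646-71834945: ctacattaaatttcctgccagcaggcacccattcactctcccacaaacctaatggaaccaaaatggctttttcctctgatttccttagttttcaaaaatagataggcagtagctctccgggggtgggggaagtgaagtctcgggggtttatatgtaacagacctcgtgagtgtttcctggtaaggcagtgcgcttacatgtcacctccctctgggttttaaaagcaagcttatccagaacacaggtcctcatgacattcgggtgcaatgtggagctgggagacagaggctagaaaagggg
The next pair differed most between the alleles of the F1 as well as between the strains.
Dpy19l3, chr7:35735305-35735604: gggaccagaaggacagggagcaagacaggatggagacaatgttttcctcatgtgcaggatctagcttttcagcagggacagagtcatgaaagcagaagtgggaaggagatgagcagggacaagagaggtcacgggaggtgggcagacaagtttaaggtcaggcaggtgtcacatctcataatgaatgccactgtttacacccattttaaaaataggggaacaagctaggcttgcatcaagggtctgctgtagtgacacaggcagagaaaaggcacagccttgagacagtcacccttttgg
Col11a2, chr17:34057711-34058010: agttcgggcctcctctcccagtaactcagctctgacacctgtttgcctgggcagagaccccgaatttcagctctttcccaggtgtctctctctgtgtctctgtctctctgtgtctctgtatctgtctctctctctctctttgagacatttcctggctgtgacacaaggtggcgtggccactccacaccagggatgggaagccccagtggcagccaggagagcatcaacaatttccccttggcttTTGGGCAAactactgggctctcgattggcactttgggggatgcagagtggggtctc
The last one differed between the strains and not between the alleles.
Tspan13, chr12:36030129-36030428: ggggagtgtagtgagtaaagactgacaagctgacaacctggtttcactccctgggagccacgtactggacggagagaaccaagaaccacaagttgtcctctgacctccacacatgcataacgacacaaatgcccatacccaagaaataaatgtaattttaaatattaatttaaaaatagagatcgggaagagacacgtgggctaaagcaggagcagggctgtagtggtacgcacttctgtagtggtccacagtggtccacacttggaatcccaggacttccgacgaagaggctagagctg
The motifs searched on both strands were PU.1 (GAGGAAGT), AP-1 (TGANTCA), C/EBP (TTGCNNAA), IRF (GAAANNGAA), MAF (TGCTGAC), MITF/TFE (CACGTGA), RUNX (TGTGGTTT) and NF-κB (GGGANTTTC). Over whole windows, AP-1 letters were present in 36.8% of members and 31.6% of all autosomal windows, and PU.1 letters in 16.4% and 14.2%. IRF letters were present in 33.6% of members and 31.1% of all autosomal windows, C/EBP letters in 39.7% and 36.7%, MAF letters in 18.5% and 16.5%, and RUNX letters in 9.39% and 8.01%. MITF/TFE letters were the exception, with 6.44% of members and 7.04% of all autosomal windows, and NF-κB letters were in 4.27% and 4.3%. Autosomal intergenic windows over 10 kb from a TSS were near the members, at 36.9% (AP-1), 16.7% (PU.1), 40.6% (C/EBP) and 35.1% (IRF). Their other shares were 17.9% (MAF), 9.43% (RUNX), 6.24% (MITF/TFE) and 5.11% (NF-κB). Between members in intron 1 and in intron 6 or beyond the shares differed little, at 38.1% and 34.8% for AP-1 and at 15.8% and 16.3% for PU.1. Median GC content was 45.1% in members, 45.4% in these intergenic windows and 47.2% in all autosomal windows. A match is a description of the letters and not a bound site.

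H3K27ac was higher in intron 1 than in later introns in each of the 9 libraries. A normalized count is a count scaled by TMM to the mean effective size of the 9 libraries. Members in intron 1 had median normalized counts of 26.5, 29.7 and 27.2 in A/J libraries 1 to 3, of 28.7, 27.5 and 26.7 in BALB/cJ and of 26.7, 27.9 and 23.9 in C57BL/6J. Members in intron 6 or beyond had medians of 15.5, 17.8 and 14.9 in A/J, of 16.04, 18.3 and 15.3 in BALB/cJ and of 14.7, 18.6 and 12.6 in C57BL/6J. The lowest library of intron 1 thus lay above the highest library of intron 6 or beyond. Intron 2 (20.2 to 25.2 over the 9 libraries) and introns 3 to 5 (15.8 to 20.8) lay between them, which the plot of levels by intron number shows. On the log2 scale with a pseudocount of 1, the median of intron 1 exceeded that of all later introns by 0.55 ± 0.07 (SD, 9 libraries), with an exact 2-sided sign-flip permutation p of 0.00391, the smallest that 9 libraries allow, and an adjusted p of 0.00426 over 12 such tests. By strain the difference averaged 0.55 ± 0.06 (A/J), 0.51 ± 0.10 (BALB/cJ) and 0.59 ± 0.03 (C57BL/6J), each as a mean ± SD of 3 libraries. In the 7 inputs the same difference averaged 0.01 ± 0.04 (SD), and the median input, scaled to the mean input size, was 8.14 to 8.61 in intron 1 and 7.999 to 8.45 in introns beyond the first.

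**Figure D1:**
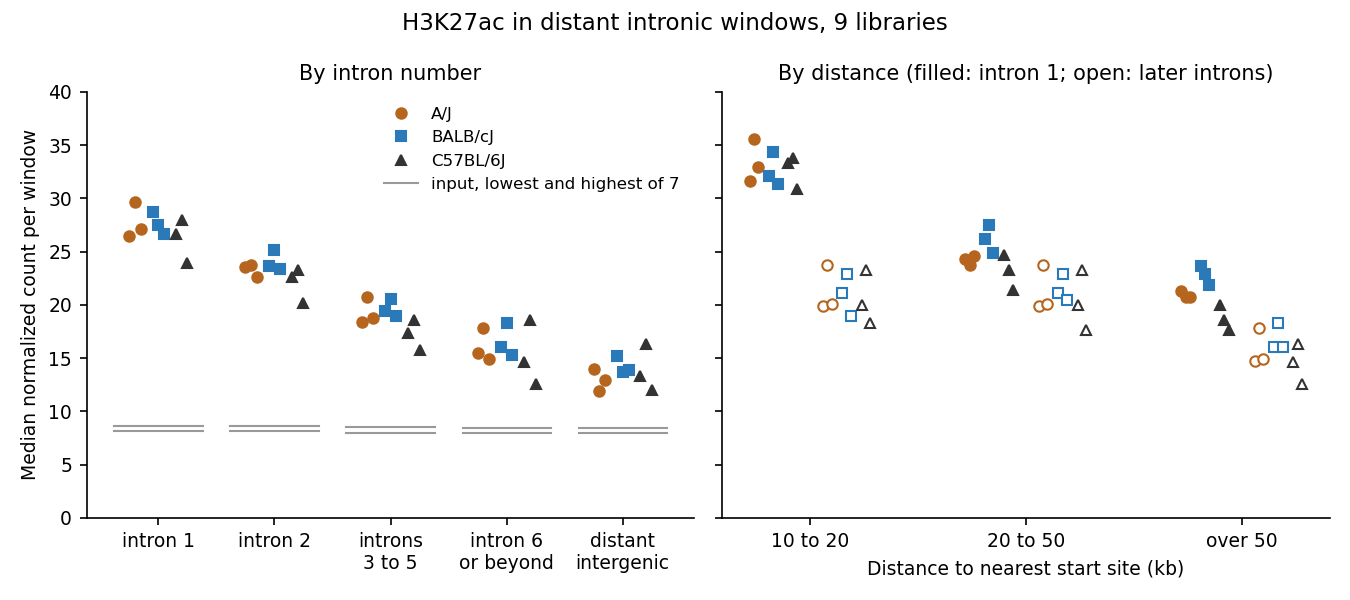
Median normalized H3K27ac count per window (y axis) for each of the 9 parental libraries, by intron number and for distant intergenic windows (left) and by distance to the nearest TSS with intron 1 filled and later introns open (right); 1 point is 1 library and grey lines bound the 7 inputs. Intron 1 lies at 23.9 to 29.7 and intron 6 or beyond at 12.6 to 18.6.

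The difference was also present within classes of distance. Members 10 to 20 kb from a TSS had medians of 30.9 to 35.6 in intron 1, against 18.3 to 23.7 in later introns (difference 0.63 ± 0.08, SD, 9 libraries; exact permutation adjusted p = 0.00426). Members over 50 kb from a TSS had medians of 17.6 to 23.6 in intron 1, against 12.6 to 18.3 in later introns (0.39 ± 0.13; exact permutation adjusted p = 0.00426). The middle class of 20 to 50 kb showed the least, with a difference of 0.21 ± 0.12, above 0 in 7 of 9 libraries and at 0 in the other 2 (exact permutation adjusted p = 0.0156). Within a transcript the contrast was smaller: in the 913 transcripts with members both in intron 1 and in a later intron, the median difference was 0.32 ± 0.04 (SD, 9 libraries, higher in 9 of 9; exact permutation adjusted p = 0.00426), against 0.02 ± 0.02 in the 7 inputs. Intron 1 exceeded intron 2 by 0.22 ± 0.06, introns 3 to 5 by 0.52 ± 0.06 and intron 6 or beyond by 0.74 ± 0.11.

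Distant intronic windows were also above distant intergenic ones. The 9 medians ran from 17.6 to 22.9 for members, against 11.9 to 16.3 for the 23266 autosomal intergenic windows over 10 kb from a TSS (0.55 ± 0.13 on the log2 scale, SD, higher in 9 of 9; exact permutation adjusted p = 0.00426). This held at 10 to 20 kb (0.56 ± 0.05), 20 to 50 kb (0.53 ± 0.10) and over 50 kb (0.38 ± 0.10). A mean count over 16 was reached by 57.4% of members, against 47.5% of the intergenic windows. Among windows past that filter alone the difference was −0.01, with an exact permutation p of 0.719. Among members past it, intron 1 exceeded later introns by 0.17, and by 0.18 within a transcript. Promoter windows had medians of 102 to 119. At the 10 kb limit itself, the 411 members less than 0.5 kb past it had medians of 20.8 to 27.9, and the 471 intronic windows less than 0.5 kb short of it had medians of 26.5 to 32.6. Members from LPS-only peaks stood at 6.93 to 11.6, against 20.8 to 25.2 for members from peaks of untreated cells.

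Apart from a pair with high input, the members with the highest counts of each intron class lay in genes of varied function. In intron 1 these were windows of Arap1, a regulator of ARF GTPases, with a mean normalized count of 793 over the 9 libraries, Slc23a2, a vitamin C transporter (580), and Nceh1, a cholesteryl ester hydrolase of macrophages (559). In intron 2 they were Igf2bp2, an RNA-binding protein (549), Iqgap1, an actin scaffold (533), and Lrrc8c, a volume-regulated channel subunit (504). In intron 6 or beyond, Lrp1, a scavenger receptor of the LDL receptor family, had 583 in its intron 6, followed by Mia3, a collagen export factor, with 541. In introns 3 to 5 an intron 3 window of the noncoding gene Lncpint, nearest to Mir29b-1, had 662, and an intron 5 window of Lpp, a focal adhesion protein, nearest to Morf4l1-ps1, had 549. None of these 10 windows passed the test in a strain comparison. A further pair had higher counts with an input to match: a window in intron 4 of Chl1 had 3666, while its scaled input count was 2263 (A/J), 1792 (BALB/cJ) or 1970 (C57BL/6J), and one in intron 6 of Sfi1 had 997, with scaled inputs of 238, 314 and 300.2 in the same strains. All 67 members in Sfi1 had mean scaled inputs over 100, against a median of 8.48 over members, and they made up 67 of the 72 members at that input. Their median normalized counts were 71.4, 166 and 112.5 in A/J, 96.3, 174 and 149 in BALB/cJ, and 3.997, 242 and 3.15 in C57BL/6J, where replicate 2 stood apart, and edgeR called none of them in any comparison (0, 0 and 1 at an unadjusted p under 0.05, and 0 by DESeq2). The median scaled input of A/J at these windows was 208, that of BALB/cJ was 232 and that of C57BL/6J was 285.

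Members were spread unevenly over genes: 634 of 4807 host genes held 10 or more members each and 50.5% of the members with a matched host. By nearest gene, Rasgef1b, a guanine nucleotide exchange factor for Ras-like GTPases, had 66 members, Fmnl2, a formin that elongates actin filaments, had 58, Dock4 and Sash1 had 53 each, and Rgl1 had 52. Their introns differ: 57 of the Fmnl2 members and 41 of the Dock4 members lay in intron 1, while none of the Rasgef1b members did.

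Strain comparisons asked which of these windows differ by genotype. Windows were tested where the mean normalized count was over 16, which 13474 members passed (57.4%), and a call needed an edgeR adjusted p under 0.05 and a change of over 1 on the log2 scale in either direction. Between A/J and BALB/cJ, 638 members were called (4.74%, against 3.63% of all tested windows), 246 higher in A/J and 392 lower. The background of higher calls was 1.4% and of lower calls 2.23% of all tested windows. Between A/J and C57BL/6J, 1217 were called (9.03%, against 7.09% of all tested windows), 620 higher in A/J and 597 lower, with backgrounds of 3.16% and 3.93%. Between BALB/cJ and C57BL/6J, 1524 were called (11.3%, against 8.56% of all tested windows), 878 higher in BALB/cJ and 646 lower, with backgrounds of 4.46% and 4.1%. Leaving out A/J replicate 3 or BALB/cJ replicate 3 brought the first count to 414 or 391, and leaving out C57BL/6J replicate 3 brought the other 2 counts to 735 and 980. In at least 1 comparison 2136 members were called (15.9%), against 12.3% of all tested windows. Among the genes with the most members, of 60 tested for Rasgef1b, 2 were lower in A/J than in BALB/cJ, 2 were higher in A/J than in C57BL/6J and 1 was higher in BALB/cJ than in C57BL/6J (3.63%, 7.09% and 8.56% of all tested windows were called in these comparisons), and of 48 tested for Sash1, a scaffold of Toll-like receptor signaling, none was called in any comparison by edgeR (3, 0 and 7 at an unadjusted p under 0.05) or by DESeq2.

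By intron class, 10.7% of tested members in intron 1 were called between BALB/cJ and C57BL/6J, 11% in intron 2, 10.9% in introns 3 to 5 and 12.6% in intron 6 or beyond. For A/J over C57BL/6J these shares were 7.83%, 8.52%, 9.73% and 10.1%, and for A/J over BALB/cJ 4.46%, 4.89%, 5.46% and 4.32%. Distant intergenic windows had 12.5%, 11.4% and 5.69% in the same 3 comparisons, and promoter windows 3.78%, 2.81% and 1.57%. The shares are descriptions, since members of a gene and overlapping windows are not independent. C57BL/6J stood apart most often: 309 members were higher in it than in both other strains (2.29%, against 2.02% of all tested windows) and 420 were lower (3.12%, against 2.12%). For BALB/cJ these counts were 164 (1.22%, against 0.805%) and 123 (0.913%, against 0.722%), and for A/J 85 (0.631%, against 0.434%) and 142 (1.05%, against 0.903%), and the strains had the same order over all windows. C57BL/6J is also the strain whose genome is mm10 itself, and the part of mapping in these counts was not tested.

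**Figure D2:**
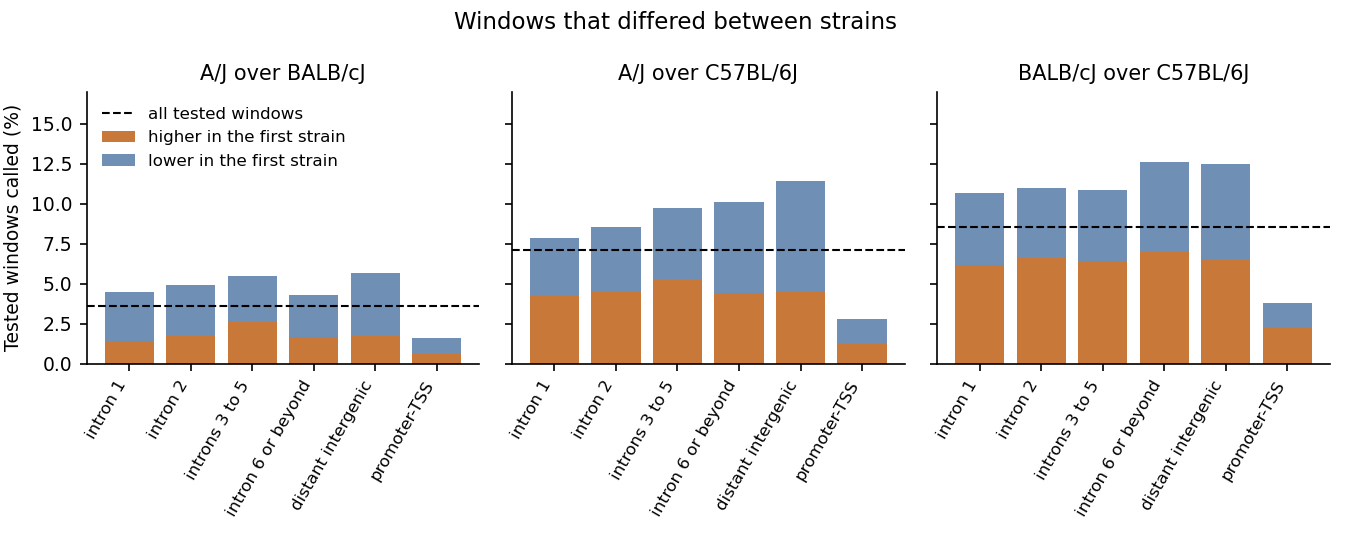
Share of tested windows called (y axis, %) in each strain comparison, by intron class, for distant intergenic and for promoter windows; orange is higher and blue lower in the strain named first, and the dashed line is the share over all tested windows. Each intron class lies above the dashed line (3.63%, 7.09% and 8.56%), and promoter windows lie below it.

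At the windows with the largest differences one strain had next to no counts. An intron 5 window of Pde4b, a phosphodiesterase that degrades cAMP and so limits anti-inflammatory signaling in macrophages, had normalized counts of 163, 139 and 164 in A/J and none in the 3 BALB/cJ libraries, while C57BL/6J had 87.9, 142 and 98.9. It was at least 155-fold higher in A/J and at least 109-fold lower in BALB/cJ than in C57BL/6J, if 3 counts are allowed to the strain without any, at edgeR adjusted p-values of 7.77e-10 and 4.22e-10. Only 5.5 input counts fell in it in BALB/cJ, against 33.5 in A/J. Of 10 tested members nearest to Pde4b, 8 were higher in A/J than in BALB/cJ and none was lower. An intron 8 window of Nlrp1c-ps, nearest to the inflammasome sensor Nlrp1b, had 103, 137 and 166 in A/J and 1.69, 0 and 0 in BALB/cJ, with 108, 130 and 108 in C57BL/6J. The 2 BALB/cJ counts put the ratio at 202 (95% counting interval 55.9 to 1670), and the BALB/cJ inputs held 0 counts there. Nlrp1 genes have near-identical copies, so these reads are uncertain. The intron 4 window of Tmem38a, an intracellular cation channel, had 78.0, 125 and 105 in A/J and 0, 6.87 and 2.19 in BALB/cJ, with a log2 fold change of 5.53 ± 0.48 (SE) and 119, 126 and 130 in C57BL/6J.

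In the reverse direction, a window in intron 23 of Ppfia4, nearest to the muscle regulator Myog, had 2.21, 2.97 and 0.647 in A/J, against 91.2, 124 and 102 in BALB/cJ and 101, 130 and 101 in C57BL/6J. Its log2 fold change was −5.96 ± 0.43 over BALB/cJ and −6.03 ± 0.43 over C57BL/6J (SE; edgeR adjusted p = 1.38e-09 and 4.21e-10). The 3 A/J libraries lay below all 6 others. The intron 3 window of Nmt1, an N-myristoyltransferase, was likewise low in A/J, with 2.95, 0 and 2.59 in A/J, against 108, 77.8 and 99.3 in BALB/cJ and 78.6, 46.6 and 57.9 in C57BL/6J. An intron 2 window of Acss2, which makes acetyl-CoA from acetate, had 0, 2.97 and 4.53 in A/J and 1.33, 0 and 8.19 in C57BL/6J, against 76.0, 59.5 and 84.0 in BALB/cJ, so that only the BALB/cJ libraries lay above 10 counts. Spag9, a scaffold of JNK signaling, and Marveld2, a tight junction protein, completed the 5 largest decreases, with log2 fold changes of −5.69 ± 0.73 and −4.38 ± 0.40 (SE) between A/J and BALB/cJ.

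C57BL/6J had few or no counts at windows of Clip4, Clmp, Nek3 (nearest to Nek5) and Dpy19l3 that both other strains had. The intron 13 window of Clip4, a protein that links to microtubules, had 108, 131 and 164 in A/J and 138, 201 and 185 in BALB/cJ, against 2.67, 4.66 and 0 in C57BL/6J. Its log2 fold change was 6.37 ± 0.50 for A/J over C57BL/6J and 6.74 ± 0.49 for BALB/cJ over C57BL/6J (SE; edgeR adjusted p = 1.64e-09 and 6.24e-10). Clmp, a cell adhesion molecule, had 115, 74.2 and 122 in A/J and 161, 124 and 117 in BALB/cJ, against 2.67, 4.66 and 0 in C57BL/6J, in an intron 1 window 46.6 kb from its TSS. All 9 tested members nearest to Clmp were higher in A/J, and all 9 were higher in BALB/cJ, than in C57BL/6J. The intron 3 window of Dpy19l3, a tryptophan mannosyltransferase, had 129, 125 and 136 in A/J and 114, 149 and 138 in BALB/cJ, against 2.67, 2.33 and 5.04 in C57BL/6J.

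Other windows were high in C57BL/6J only. The intron 1 window of Coro2a, a coronin that binds actin, had 0.736, 0 and 0 in A/J and none in BALB/cJ, against 436, 298 and 679 in C57BL/6J, the largest fold of the windows named here. It was at least 469-fold lower in BALB/cJ than in C57BL/6J, and the single A/J count puts the ratio of C57BL/6J to A/J at 1530 (95% counting interval 274 to 60300). Summed input counts there were 11 (A/J), 0 (BALB/cJ) and 9 (C57BL/6J). Of the bases of the Coro2a window 15.2% are masked as repeats in the reference, against a median of 16.6% over members. Mtmr7, a phosphoinositide phosphatase, had 2.95, 5.93 and 1.29 in A/J and 7.60, 4.58 and 7.30 in BALB/cJ, against 188, 177 and 250.0 in C57BL/6J, in an intron 1 window with 19 input counts (A/J), 11.5 (BALB/cJ) and 7.5 (C57BL/6J). Tbc1d14, a regulator of autophagosome formation, had 1.47, 0 and 3.23 in A/J and 2.53, 0 and 0 in BALB/cJ, against 112, 93.1 and 101 in C57BL/6J, in an intron 2 window with inputs of 2, 0 and 8 counts. Among the 1524 members called between BALB/cJ and C57BL/6J, 17 had no input count in the lower strain. The part of missing or unmappable sequence in these windows was not tested.

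**Figure D3:**
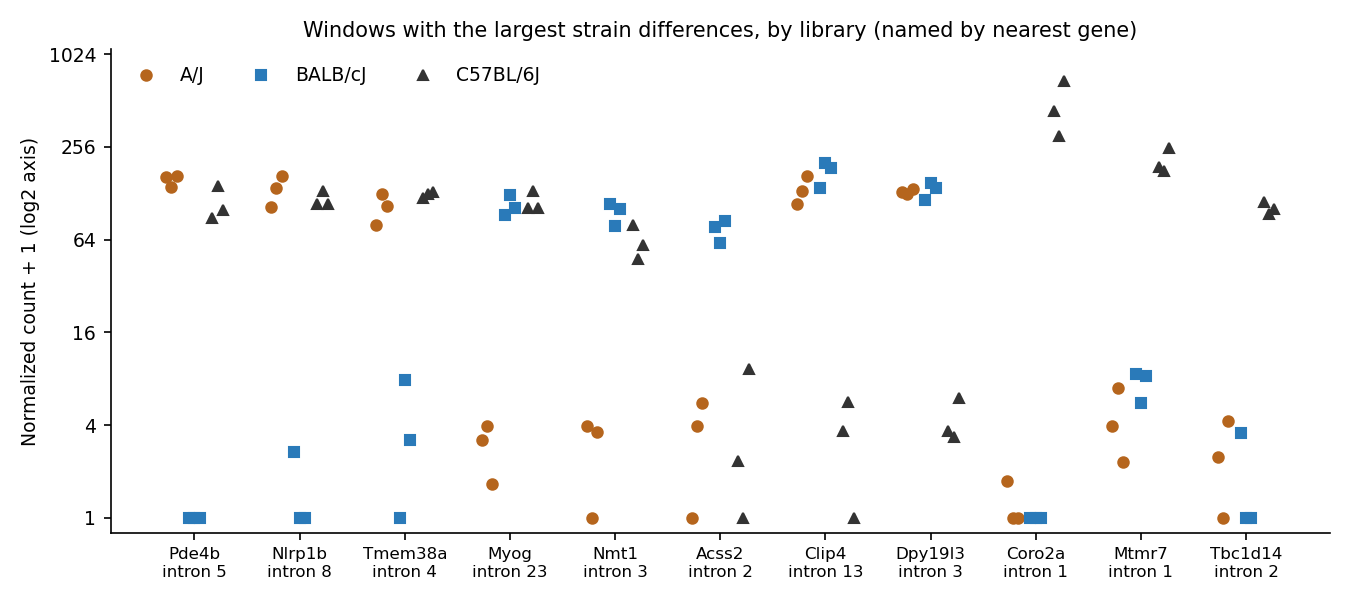
Normalized H3K27ac count plus 1 (y axis, log2 scale) of 11 windows with large strain differences in 3 A/J (circles), 3 BALB/cJ (squares) and 3 C57BL/6J (triangles) libraries. In each window the libraries of at least 1 strain lie under 10 and those of another lie above 40.

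Several called members often shared a nearest gene, as members themselves and overlapping windows do. Of the 809 nearest genes with a member called between BALB/cJ and C57BL/6J, 168 had 3 or more, and in 148 of these all pointed the same way. For A/J over C57BL/6J this was so in 115 of 134 genes, and for A/J over BALB/cJ in 53 of 59. Tgfbr2, the type II receptor of TGF-β, a signal needed for Kupffer cell identity, had 14 called of 26 tested members between BALB/cJ and C57BL/6J, all higher in BALB/cJ, and 11 between A/J and C57BL/6J, all higher in A/J. Its most changed window lay in intron 1, 18.6 kb from the TSS, and had 169, 119 and 253 in A/J and 178, 119 and 193 in BALB/cJ, against 14.7, 27.9 and 18.9 in C57BL/6J. The log2 fold change was 3.24 ± 0.32 for A/J over C57BL/6J and 3.08 ± 0.32 for BALB/cJ over C57BL/6J (SE; edgeR adjusted p = 8.36e-08 and 1.73e-07). Another, in intron 3 at 63.5 kb, had 42.0, 44.5 and 51.8 in A/J and 70.1, 82.4 and 55.5 in BALB/cJ, against 5.33, 21.0 and 7.56 in C57BL/6J. Between them a window at 35.6 kb did not pass the test in any pair with C57BL/6J, with 174, 166 and 200 in A/J and 196, 151 and 248 in BALB/cJ, against 161, 130 and 200 in C57BL/6J. Windows with and without a difference thus alternated along the gene, as the plot along Tgfbr2 shows. Tnfrsf21, a death receptor, had 12 called members of 20 tested between A/J and C57BL/6J, all higher in A/J, and Clmp and Nrp2 had 9 of 9 and 8 of 8.

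**Figure D4:**
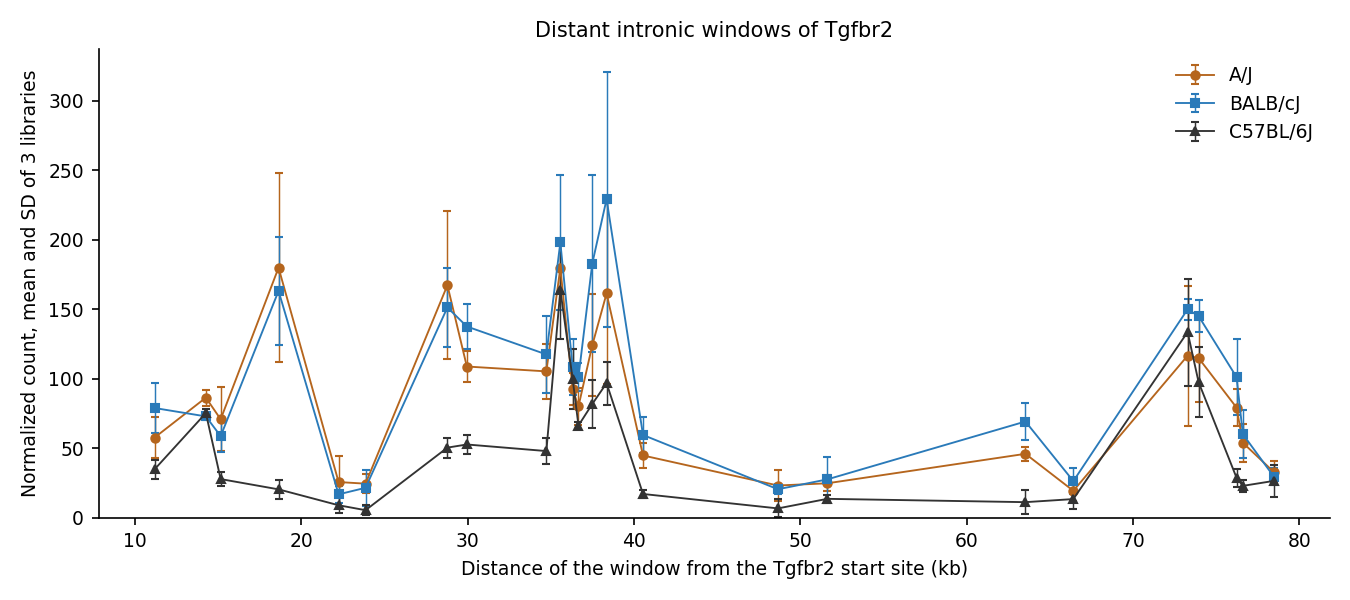
Normalized H3K27ac count (y axis, mean and SD of 3 libraries per strain) of the members inside Tgfbr2 against their distance from its TSS (x axis, kb). A/J and BALB/cJ lie above C57BL/6J at 18.6, 28.8 and 63.5 kb and near it at 14.3, 35.6 and 73.3 kb.

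Outside the lists of cell markers, TGF-β, BMP and Notch genes had the largest shares of calls with C57BL/6J. Most of these calls lay at 1 gene, so the shares do not describe the rest of the list. Tgfbr2 had 26 of the 130 tested members, 11 of the 16 calls for A/J and 14 of the 17 higher calls for BALB/cJ. Some of its windows overlap, and the list without Tgfbr2 was not counted apart. Of 130 tested members, 16 were higher and 0 lower in A/J than in C57BL/6J (12.3%, against 7.09% of all tested windows; median log2 fold change 0.24, against −0.01). In BALB/cJ 17 were higher and 1 lower than in C57BL/6J (13.8%, against 8.56%; median 0.21, against −0.01). Between A/J and BALB/cJ, 5 were higher and 2 lower in A/J (5.38%, against 3.63%). Acvr1, a BMP receptor, had 58.2, 65.3 and 60.8 in A/J and 22.8, 18.3 and 17.5 in BALB/cJ, against 5.33, 6.99 and 2.52 in C57BL/6J in an intron 3 window, so that the 3 strains did not overlap. The one decrease was an intron 1 window of Ski, a repressor of TGF-β signaling, with 11.8, 13.7 and 20.5 in BALB/cJ, against 69.3, 46.6 and 59.2 in C57BL/6J and 44.2, 53.4 and 58.9 in A/J.

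Of 73 tested members at interferon and STAT genes, 1 was higher and 8 lower in BALB/cJ than in C57BL/6J (12.3%, against 8.56% of all tested windows). The median log2 fold change was −0.12, against −0.01, and DESeq2 called 6 members in this comparison. Between A/J and C57BL/6J 0 were higher and 4 lower in A/J (5.48%, against 7.09%), and between A/J and BALB/cJ 2 were higher and 0 lower in A/J (2.74%, against 3.63%). An intron 4 window of Lepr, the leptin receptor, had 141, 92.0 and 147 in A/J and 148, 119 and 161 in BALB/cJ, against 458, 265 and 546 in C57BL/6J (log2 fold change −1.71 ± 0.25 and −1.57 ± 0.25, SE; edgeR adjusted p = 3.03e-05 and 8.41e-05). The window nearest to Irf5, a factor of the interferon and Toll-like receptor response, lies in intron 17 of Tnpo3 and had 21.95, 27.5 and 17.5 in BALB/cJ, against 45.3, 41.9 and 64.2 in C57BL/6J. That call was lost without BALB/cJ replicate 3 (edgeR adjusted p = 0.0803) or C57BL/6J replicate 3 (0.125). The 1 member higher in BALB/cJ than in C57BL/6J, in intron 22 of Jak1 and nearest to Raver2, also lost its call in some fits. These were the fits without BALB/cJ replicate 3 (edgeR adjusted p = 0.0605) or C57BL/6J replicate 2 (log2 fold change 0.944).

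Of 97 tested members at Toll-like receptor and NF-κB genes, 2 were higher and 1 lower in A/J than in C57BL/6J (3.09%, against 7.09% of all tested windows), 2 were higher and 3 lower in BALB/cJ than in C57BL/6J (5.15%, against 8.56%), and none was called between A/J and BALB/cJ by edgeR or DESeq2 (11 at an unadjusted edgeR p under 0.05). Irak3, an inhibitor of Toll-like receptor signaling, had 8.44, 4.58 and 4.38 in BALB/cJ, against 61.3, 23.3 and 32.8 in C57BL/6J, with 23.6, 8.90 and 14.2 in A/J, in an intron 7 window (BALB/cJ over C57BL/6J −2.70 ± 0.49, SE; edgeR adjusted p = 0.000335). An intron 12 window of Tnip1, an inhibitor of NF-κB, nearest to Gpx3, a glutathione peroxidase, had 35.3, 53.4 and 36.2 in A/J, against 11.99, 14.0 and 9.45 in C57BL/6J.

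Lipid and LXR genes had 149 tested members, of which 8 were higher and 1 lower in BALB/cJ than in C57BL/6J (6.04%, against 8.56% of all tested windows), 6 were higher and 6 lower in A/J than in C57BL/6J (8.05%, against 7.09%), and 0 were higher and 2 lower in A/J than in BALB/cJ (1.34%, against 3.63%). An intron 12 window of Acsl3, an acyl-CoA synthetase, nearest to Utp14b, had 66.3, 53.4 and 69.9 in A/J and 93.7, 101 and 74.5 in BALB/cJ, against 9.33, 14.0 and 6.30 in C57BL/6J. Lpcat2, which remodels phospholipids, went the other way in intron 6, with 14.7, 5.93 and 13.6 in A/J and 16.9, 27.5 and 18.99 in BALB/cJ, against 76.0, 60.5 and 71.2 in C57BL/6J. Soat1, which esterifies cholesterol, was higher in an intron 2 window, with 56.0, 47.5 and 71.8 in A/J and 70.9, 59.5 and 77.4 in BALB/cJ, against 20.0, 30.3 and 18.3 in C57BL/6J.

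Genes of macrophage lineage and identity had calls at a share under that of all tested windows (3.63%, 7.09% and 8.56%). Of 253 tested members at lineage transcription factors, 1 was higher and 2 lower in A/J than in BALB/cJ, 2 and 2 in A/J than in C57BL/6J, and 6 and 2 in BALB/cJ than in C57BL/6J (1.19%, 1.58% and 3.16% of tested members). An intron 8 window of Etv6, an ETS repressor active in hematopoiesis, was among them, with Bcl2l14 as its nearest gene, and had 94.97, 94.9 and 97.0 in A/J and 87.8, 77.8 and 79.6 in BALB/cJ, against 36.0, 16.3 and 27.1 in C57BL/6J. Of 120 tested members at Kupffer cell identity genes, edgeR and DESeq2 each called 0 between A/J and BALB/cJ (9 at an unadjusted edgeR p under 0.05), and edgeR called 3 higher and 2 lower between A/J and C57BL/6J (4.17%), and 5 higher and 1 lower between BALB/cJ and C57BL/6J (5%). Itga9, an integrin subunit, was one of the 5, with 66.7, 27.5 and 56.96 in BALB/cJ, against 7.995, 11.6 and 10.1 in C57BL/6J, in intron 1. For phagocytosis and efferocytosis genes 1 of 346 tested members was higher and 1 lower in A/J than in BALB/cJ, 2 and 4 in A/J than in C57BL/6J, and 6 and 9 in BALB/cJ than in C57BL/6J (0.578%, 1.73% and 4.34%).

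Markers of other cells had few members. Of all tested windows, 3.63% were called for A/J over BALB/cJ, 7.09% for A/J over C57BL/6J and 8.56% for BALB/cJ over C57BL/6J. Of 10 tested members at Kupffer cell markers and 6 at hepatocyte markers none was called in any comparison by edgeR or DESeq2, with at most 1 and 3 at an unadjusted edgeR p under 0.05. Of 4 tested at stellate cell markers, 3 were lower in A/J and 3 lower in BALB/cJ than in C57BL/6J, among them an intron 7 window of Acta2, smooth muscle actin, nearest to Stambpl1, with 3.68, 11.9 and 3.88 in A/J and 10.1, 4.58 and 8.03 in BALB/cJ, against 89.3, 60.5 and 87.5 in C57BL/6J. Pdgfrb, the PDGF receptor of mesenchymal cells, had 33.1, 29.7 and 21.99 in A/J and 32.1, 20.6 and 16.1 in BALB/cJ, against 127, 186 and 108 in C57BL/6J in an intron 14 window. At the TSS the 3 stellate markers with a window summed to 5.18 to 19.9 in A/J, 10.2 to 20.6 in BALB/cJ and 8.82 to 16.3 in C57BL/6J. At monocyte and neutrophil markers 3 members were tested, of which 1 was lower in A/J and 2 lower in BALB/cJ than in C57BL/6J, led by an intron 3 window of Plac8 with 11.04, 17.8 and 12.3 in A/J and 5.07, 9.16 and 9.49 in BALB/cJ, against 128, 119 and 160.0 in C57BL/6J. At B, T and NK cell markers 2 of 7 were lower in A/J than in BALB/cJ and 1 was lower in A/J than in C57BL/6J, and at sinusoidal endothelial markers 1 of 17, in intron 13 of Pecam1, was higher in A/J than in C57BL/6J. The window nearest to Ms4a1, the B cell antigen CD20, inside 4930526L06Rik and the one lower in A/J than in C57BL/6J, lost its call without A/J replicate 1 (edgeR adjusted p = 0.149), A/J replicate 3 (0.0683) or C57BL/6J replicate 1 (0.0757). The Pecam1 call was lost without A/J replicate 1 (edgeR adjusted p = 0.0901) or C57BL/6J replicate 3 (0.1).

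The F1 hybrid asked whether a strain difference stays with the allele when both alleles share a nucleus. Allelic counts need a variant in the read, and 865 members passed the count filter both between strains and between alleles, where it was a mean normalized count over 16. Of these, 166 (19.2%) were called between the parental BALB/cJ and C57BL/6J, against 11.3% of all tested members and 12.4% of all windows tested both ways. Between the alleles 93 of the 865 were called (10.8%, against 7.2% of all tested windows), 39 with the BALB/cJ allele higher and 54 with the C57BL/6J allele higher. Pairing the alleles by animal (a block in the fit) gave 39 calls, leaving out animal 2 gave 39 and leaving out animal 3 gave 34. Of the 166, 75 were called between alleles in the same direction, 0 in the opposite one and 91 were called between strains alone, while 18 more were called between alleles alone. Over all windows tested both ways, 242 of 648 strain calls were called between alleles in the same direction and 406 between strains alone. Distant intergenic windows were near the members: of 812 tested both ways, 168 (20.7%) were called between strains and 94 (11.6%) between alleles. Of those 168, 73 were called between alleles in the same direction. The allelic change had the sign of the strain change in 154 of the 166, against 576 of the 648 over all windows, with median absolute log2 fold changes of 1.36 between alleles and 1.63 between strains. By intron number, 5.92% of the 304 members in intron 1 were called between alleles, 8.92% in intron 2, 18.3% in introns 3 to 5 and 12.1% in intron 6 or beyond. The strain shares of the same members were 15.5%, 21.0%, 22.8% and 19.8%. These shares are descriptions and were not tested against each other. They and the split of the 166 come from the fit without pairing by animal, and neither was counted again with it.

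The Dpy19l3 window shown above had 32.0, 40.9 and 61.4 normalized counts of the BALB/cJ allele in animals 1 to 3, against 0, 0 and 1.97 of the C57BL/6J allele. The 2 counts of the C57BL/6J allele put the ratio at 68.2 (95% counting interval 18.9 to 563). Its edgeR adjusted p was 4.67e-05, or 0.0392 once alleles were paired by animal. A second intron 1 window of Clmp, 23.5 kb from the TSS, had 39.6, 18.2 and 44.0 of the BALB/cJ allele, against 0, 0 and 1.97 of the C57BL/6J allele. Cadm1, an adhesion molecule, had 59.4, 44.0 and 41.0 of the BALB/cJ allele, against 3.01, 0 and 3.94 of the C57BL/6J allele, in an intron 1 window that stood at 159, 131 and 153 in BALB/cJ, against 11.99, 2.33 and 6.93 in C57BL/6J mice. Its edgeR adjusted p was 0.000145, or 0.0568 once alleles were paired by animal. Toward C57BL/6J, an intron 36 window of Col11a2, a fibrillar collagen gene, had no count of the BALB/cJ allele in 3 animals, against 42.2, 46.8 and 35.5 of the C57BL/6J allele, a level at least 40.8-fold lower if 3 counts are allowed to it. Its edgeR adjusted p was 1.72e-05, or 0.0581 once alleles were paired by animal, and the parental counts were 4.22, 6.87 and 2.19 in BALB/cJ, against 68.0, 60.5 and 76.2 in C57BL/6J. Dhx34, a helicase of nonsense-mediated decay, had 0, 1.52 and 2.05 of the BALB/cJ allele, against 63.3, 93.5 and 53.2 of the C57BL/6J allele in its intron 7. The Tgfbr2 window at 18.6 kb had 76.1, 34.9 and 49.1 of the BALB/cJ allele, against 27.1, 8.77 and 17.7 of the C57BL/6J allele. Its log2 fold change was 1.62 ± 0.45 (SE), with an edgeR adjusted p of 0.029, or 0.0499 once alleles were paired by animal. Tgfbr2 windows at 28.8, 76.6 and 76.2 kb were called between BALB/cJ and C57BL/6J mice but not between alleles. Their allelic log2 fold changes were 0.89, 0.72 and 0.72 (edgeR adjusted p = 0.342, 0.753 and 0.753), and the last pair share their allelic counts.

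Other strain differences were not seen between the alleles. The test of the strain against the allelic change passed for 17 of 865 members (against 2.52% of all tested windows), 12 with a positive and 5 with a negative difference. It passed for 28 when same-numbered libraries were blocked and for 3 without replicate 3. The 17 include pairs of overlapping windows at Clip4, Parp2, Colec12 and Tspan13, which share reads. In the Parp2 window, which lies in intron 13 of a gene for DNA repair, strains had 2.53, 11.5 and 10.2 in BALB/cJ, against 149, 130 and 213 in C57BL/6J, but alleles had 27.4, 15.2 and 20.5 of BALB/cJ, against 27.1, 19 and 28.6 of C57BL/6J. In the Tspan13 window, in intron 1 of a tetraspanin gene, strains had 182, 165 and 278 in BALB/cJ, against 70.6, 32.6 and 92.6 in C57BL/6J, and alleles had 45.7, 57.6 and 76.8 of BALB/cJ, against 87.4, 55.5 and 65.0 of C57BL/6J. Clip4 differed at both levels by unlike amounts: the BALB/cJ allele had 42.6, 71.3 and 85.0, against 9.04, 24.9 and 21.7 of the C57BL/6J allele, a log2 fold change of 1.79 ± 0.39 between alleles and of 6.74 ± 0.49 between strains (SE; edgeR adjusted p of the difference 4.59e-05). An intron 84 window of Ryr1, the calcium release channel of muscle, nearest to Mir1963, showed the converse, with 204, 234 and 234 in BALB/cJ, against 228, 163 and 321 in C57BL/6J mice, and 0, 1.52 and 1.02 of the BALB/cJ allele, against 54.3, 53.4 and 46.3 of the C57BL/6J allele. The strain counts take all reads of a window and the allelic counts only reads across a variant, and the part of that in these differences was not tested.

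**Figure D5:**
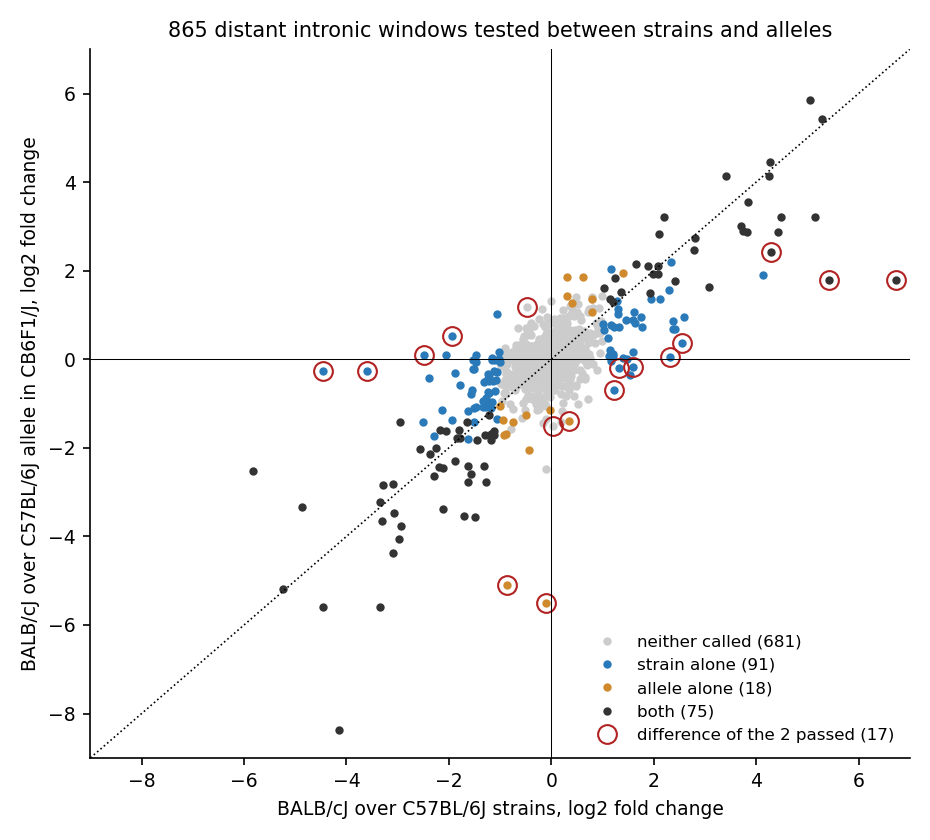
Log2 fold change of the BALB/cJ over the C57BL/6J allele in CB6F1/J (y axis) against that of BALB/cJ over C57BL/6J mice (x axis) for 865 members; colors give the calls, red circles the 17 members whose 2 changes differed, and the dotted line equality. The 75 members called both ways, with alleles not paired by animal in the fit, all changed in the same direction in both.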

How the data were processed

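The members and gene lists were chosen with earlier results of these data known. Per the authors' methods, reads were aligned with Bowtie2 to mm10 or to genomes carrying the single-base and short variants of A/J or BALB/cJ (larger structural variants were not considered), moved to mm10 coordinates with MMARGE, and counted with HOMER in 1000 bp windows around merged ATAC-seq peaks. Versions of these tools are not given in the sources used here. The deposited parental values of replicates 1 and 3 are raw counts per window. Those of replicate 2, the inputs and the F1 move in steps of 0.5, so these deposited values were handled like expected counts and rounded for the fits. F1 regions are 200 bp wide, hold reads that cross a BALB/cJ or C57BL/6J variant, and were summed over the parental windows that hold their midpoint, so that overlapping windows can share a region; 6 columns of F1 reads that need not cross a variant were not used.

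Counts were normalized by TMM and tested with edgeR 4.0.16 (R 4.3.3) by the quasi-likelihood F test, 1 fit over all 60387 windows with a mean normalized count over 16 (5234 for alleles), Benjamini–Hochberg adjustment over all of them, and calls at an adjusted p under 0.05 and a log2 fold change over 1 in size. The SE was taken as the size of the log2 change over the root of its F statistic. Strain and allele changes were compared by an interaction term, called on the adjusted p alone. DESeq2 1.42.0, other filters, a replicate block and the omission of each library were alternatives. The common biological coefficient of variation came to 0.214 for strain libraries and 0.281 for F1 columns. Library medians were compared by exact sign-flip permutation (2-sided). Counting intervals are exact 95% Poisson intervals and, like the floor of 3 counts, cover counting error only. Of these steps, only the strain fit was run on simulated counts, with independent libraries, a single dispersion and changes in A/J alone. That simulation held no pairing of libraries and did not cover the allele, interaction or permutation tests.

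Same-numbered libraries of different strains deviated together (Pearson r from 0.227 to 0.414 over windows in 9 of 9 pairs, against −0.317 to 0.0629 for other pairs). The numbers were therefore taken as pairing in the replicate block, and F1 alleles pair by animal. The main strain and allele fits held no block. Calls and edgeR p-values come from those fits unless a block or pairing is named. Whether libraries came from separate mice is not stated for each, and p-values measure the spread between libraries. Named windows were, per comparison and direction, the 5 called members with the largest change, non-overlapping libraries and a mean of at least 50 in the higher strain (1 per gene, no Gm or Rik names), the 3 highest of each intron class, the 3 lowest adjusted p of each list, the 5 genes with most members, and the 3 largest allelic and 3 largest strain-alone changes per direction; Sfi1, Ryr1 and further Tgfbr2, Clmp and Clip4 values were chosen after they were seen. The input of C57BL/6J is 1 library. A window sequence and a gene list are not reported here.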

Additional observations from a re-analysis of the deposited data

Results flagged for a closer look

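At 9 members called between strains alone, of which 5 are given here (1 window per gene, no Rik names), the change between BALB/cJ and C57BL/6J mice differed from the change between the BALB/cJ and C57BL/6J alleles of the F1 by a test of the difference itself (edgeR interaction term, 3 libraries per group; strain minus allele, log2). These were 9 of 91 members called between strains alone, a share near that over all windows tested both ways (40 of 406). Parp2, Colec12 and Tspan13 each hold a pair of overlapping windows among the 9, and the Parp2 pair has the same allelic counts. The 9 members are thus not independent. The difference was 2.349 in intron 2 of Colec12, a scavenger receptor (edgeR adjusted p = 0.000672), 1.955 in intron 1 of Tspan13 (0.00373) and 2.09 in intron 5 of Ttc7 (0.0196). It was −4.042 in intron 13 of Parp2 (8.64e-05) and −2.439 in intron 12 of Tgs1, an RNA cap methyltransferase (0.04). The Colec12 window had 177, 179 and 223 normalized counts in BALB/cJ, against 30.7, 25.6 and 39.1 in C57BL/6J, and 48.7, 41.7 and 56.3 of the BALB/cJ allele, against 48.2, 28.5 and 39.4 of the C57BL/6J allele. The Tgs1 window had 18.6, 25.2 and 8.03 in BALB/cJ, against 87.9, 97.8 and 81.2 in C57BL/6J, and 18.3, 13.7 and 20.5 of the BALB/cJ allele, against 21.1, 10.96 and 17.7 of the C57BL/6J allele. The strain call at Ttc7 was lost without BALB/cJ replicate 1 or 3 or C57BL/6J replicate 2 or 3, with edgeR adjusted p-values of 0.054 to 0.115.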

How the results depend on the processing

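The higher level of intron 1 kept its direction and its exact permutation p under 0.05 in all 15 alternatives (0.17 to 0.59, and within transcripts 0.18 to 0.35). Both were smallest among tested windows only, where the filter keeps windows by their count (0.17 and 0.18, against 0.55 and 0.32 in the main setting). The higher level of members over distant intergenic windows did so in 14 (0.45 to 0.57), but not among tested windows only (−0.009195). Leaving out 1 library gave 391 to 722 members called for A/J over BALB/cJ (391 without BALB/cJ replicate 3, 414 without A/J replicate 3), 735 to 1435 for A/J over C57BL/6J and 980 to 1715 for BALB/cJ over C57BL/6J, both lowest without C57BL/6J replicate 3. A mean count over 32 left 9356 tested members and gave 738 and 950 for the last 2 comparisons. With the replicate block, which uses the pairing, the strain counts were 938, 1508 and 1865, and DESeq2 gave 585, 1063 and 1319. For the F1 alleles the block by animal gave 39, leaving out 1 animal 34 to 99, and a mean count over 8 gave 130. For the differences between strain and allele changes the block gave 28 and leaving out 1 replicate 3 to 13. Without replicate 2 of all 3 strains, an alternative chosen after seeing the data because these libraries were the shallowest, the strain counts were 734, 1689 and 2068. The rules for named windows picked 68 calls, and not all of these windows are described above. Of the 68, 62 held in every fit without 1 library that tested the window (57 of them in all 9 fits, 5 in 5 or 8, since their counts fell under the filter in the others). The 6 losses include a Runx1 window that is not described above, and their cause was not tested. In the F1, where depth and the need for a variant both limit the counts, 865 of 23454 members could be tested.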
